A study of Homo sapiens with 12 samples.

Results

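The NRF2 pathway was measured through 9 genes in RCC4 cells, a human clear cell kidney cancer line that has no functional VHL, so that both HIF-α proteins escape degradation at normal oxygen. The members were chosen by gene symbol, with earlier results of these data known. They are 9 of the 23106 symbols counted in each library, and all 9 passed the expression filter. They comprise the transcription factor NRF2 (NFE2L2), its inhibitor KEAP1, and 7 target genes, HMOX1, NQO1, GCLM, GCLC, TXNRD1, SRXN1 and ME1. RNA was collected 48 h after transfection of siRNA pools into 4 groups with 3 replicates each, 12 libraries in all. Every dish received 2 nM siRNA. The control group had 2 nM control siRNA. For the single knockdowns, 1 nM of the HIF1A or the HIF2A siRNA was topped up with 1 nM of the control pool, and the double knockdown had 1 nM of each HIF siRNA and no control siRNA. HIF2A siRNA targets EPAS1, which encodes HIF-2α. All groups are the same cell line in the same medium, with no normal kidney cell and no VHL-restored cell among them.

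NRF2 is a basic leucine zipper factor that KEAP1 binds in the cytoplasm and hands to a ubiquitin ligase. When oxidants or electrophiles modify KEAP1, NRF2 escapes, pairs with a small MAF protein and binds antioxidant response elements of genes for glutathione synthesis, thioredoxin reduction and NADPH supply. HMOX1 encodes heme oxygenase 1, which opens the heme ring to yield biliverdin, iron and carbon monoxide. It is a target of NRF2, of the repressor BACH1 and of hypoxia, whereas the other targets measured here are mostly known for their response to NRF2.

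HMOX1 differed between the siRNA groups, which is a description, since the study selected it as specific to HIF-2 on the control and single-siRNA libraries. Its mRNA was at 132 ± 24.6 CPM with control siRNA and 123 ± 20.8 with HIF1A siRNA, but at 73.9 ± 9.30 with HIF2A siRNA and 66.8 ± 13.5 in the double knockdown (SD, n = 3 each). CPM are counts scaled to a library total of 1000000, with the total corrected by its TMM factor. Of the other 8 members, 0 passed the edgeR test at an adjusted p under 0.05 in any of the comparisons, in which 0.0 to 10.3% of all genes passed. In other fits NQO1 or SRXN1 passed in the double knockdown against control siRNA, as given with their values.

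Before the values, the promoters are shown where the antioxidant response element core could be found, since it is the element through which NRF2 acts. The core was searched as TGACNNNGC on both strands of RefSeq promoter windows (GRCh38.p14) that run from 250 bases before to 50 bases after each start site. The table holds 11 windows for 8 of the 9 members, and 5 of these windows, of GCLM, ME1, TXNRD1 and KEAP1, held the core. HMOX1 is the member without a window in the table, so its promoter was not searched. Of all 35116 windows in the table, 13.3% held it. In the stretches below, 10 bases flank the core on each side, capitals mark the core, and where it lies on the opposite strand its letters read GCNNNGTCA.
GCLM: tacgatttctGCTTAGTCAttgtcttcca
ME1: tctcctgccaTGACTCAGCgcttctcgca
TXNRD1 first window: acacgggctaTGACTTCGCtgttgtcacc
TXNRD1 other window: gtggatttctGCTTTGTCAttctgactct
KEAP1 upper: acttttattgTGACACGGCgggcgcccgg
KEAP1 lower: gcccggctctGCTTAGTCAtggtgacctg
The GCLM stretch lies at chr1:93909446-93909474 on the minus strand, with the leftmost base of the core, as printed, 34 bases before the start site. The ME1 stretch is at chr6:83431170-83431198 on the minus strand, 137 bases before the start site, and it also holds the letters TGACTCA of the overlapping AP-1 site. The TXNRD1 stretches are on the plus strand, at chr12:104215670-104215698, 99 bases before the start site of its window, and at chr12:104286920-104286948, 102 bases before that of the other window. The KEAP1 stretches are on the minus strand at chr19:10502807-10502835 and chr19:10502784-10502812, 54 and 31 bases before the start site. These are the 6 matches whose flanks end before the start site. A match 8 bases before the start in the first TXNRD1 window and another 11 bases after the start of ME1 are not printed. The hypoxia response element core ACGTG, searched on both strands too, was in 21.4% of all windows and in 0 of the 11 windows of members. These windows do not include HMOX1. A match is a string of letters and not a binding site, and the absence of one says only that the letters are not in this window.

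The siRNAs lowered the genes they target. HIF1A mRNA was at 96.7 ± 33.6 CPM with control siRNA, 18.3 ± 3.62 with HIF1A siRNA, 121 ± 13.3 after HIF2A siRNA and 28.7 ± 4.09 in the double knockdown (SD, n = 3 each). EPAS1 mRNA was at 157 ± 16.9, 114 ± 17.7, 10.1 ± 1.53 and 8.94 ± 2.16 CPM in the same order (SD, n = 3 each). Total counts ranged from 13263168 to 20451433 per library. Markers of kidney epithelium or clear cell renal carcinoma were present, 11 of 12 at a mean of at least 1 CPM in each group. Their summed level was 5010 to 7759 CPM per library, of which VIM, also a mesenchymal gene, made up 2927 to 5433. The marker below 1 CPM was CDH1, at group means of 0.04 to 0.32 CPM. Of 14 markers of blood, endothelial, stromal and other cells, 4 had no count in any library, and their summed level was 91.3 to 117 CPM with control siRNA, 88.2 to 131 with HIF1A siRNA, 92.2 to 166 after HIF2A siRNA and 93.7 to 147 in the double knockdown. Of these 14 markers, 6 reached a mean of at least 1 CPM in each group. The highest were CD68, at group means of 46.1 to 58.1 CPM, and COL1A1, at 27.8 to 49.5 CPM. Whether other cells were present was not tested. In bulk RNA, fewer cells that express a gene and less RNA of it per cell cannot be told apart.

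Per length, NQO1, HMOX1 and TXNRD1 had the highest levels of the members and GCLC the lowest. With control siRNA the level per kilobase of the canonical transcript was 89.1 ± 13.2 CPM per kb for NQO1, the NAD(P)H quinone oxidoreductase, 85.0 ± 15.9 for HMOX1 and 72.8 ± 23.6 for TXNRD1, the cytosolic thioredoxin reductase (SD, n = 3 each). SRXN1 was at 69.4 ± 7.64, KEAP1 at 64.0 ± 3.05 and NFE2L2 at 57.9 ± 13.3 CPM per kb. ME1, GCLM and GCLC followed at 30.6 ± 7.21, 22.8 ± 4.25 and 13.9 ± 0.91 CPM per kb. From NQO1 to NFE2L2, and between ME1 and GCLM, the ranges of the 3 libraries of neighbours in this order overlapped, while those of NFE2L2 and ME1, and of GCLM and GCLC, did not. Counts behind these levels ran from 853 for GCLC to 6047 for TXNRD1 per control library.

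**Figure D1:**
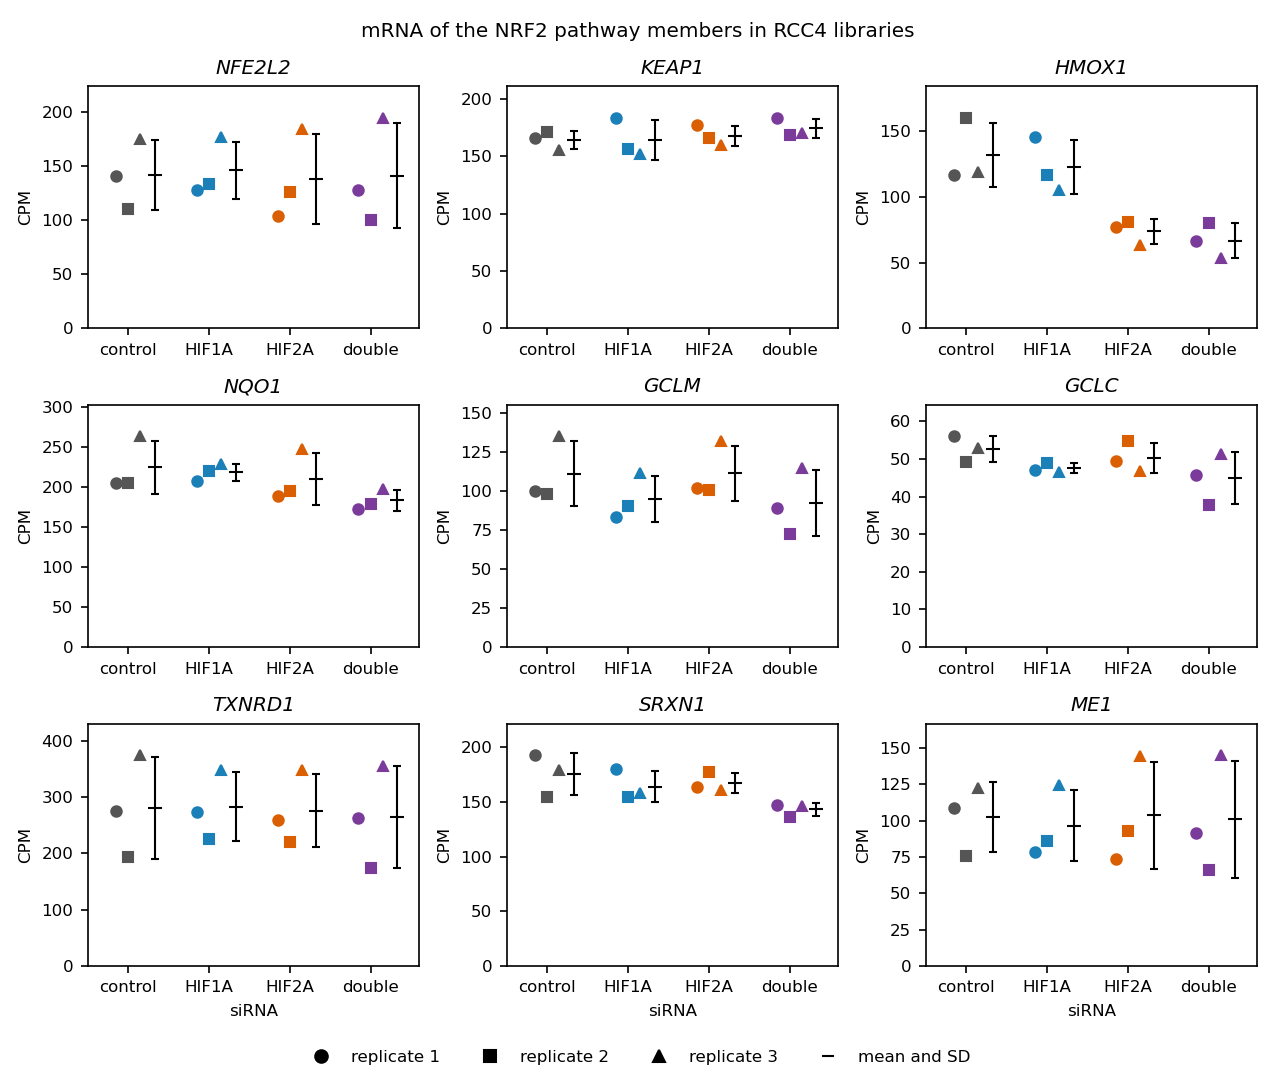
CPM of the 9 members on linear axes from 0, with 1 panel per gene, the siRNA group on the x axis, circles, squares and triangles for replicates 1, 2 and 3, and a bar for the mean and SD of 3 libraries. HMOX1 is the member whose 6 libraries with HIF2A siRNA, at 53.3 to 80.9 CPM, lie below its 6 others, at 105.5 to 160.5 CPM. These include the libraries on which the study selected HMOX1, and how many of all genes separate in this way was not counted. The triangles of NFE2L2, NQO1, GCLM, TXNRD1 and ME1 are the highest point in each of the 4 groups.

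HMOX1 was at 117, 160.5 and 119 CPM in replicates 1, 2 and 3 with control siRNA. With HIF1A siRNA it was at 146, 117 and 105.5 CPM. These groups overlapped, and the replicates did not move one way, since HMOX1 with HIF1A siRNA was at 125%, 72.9% and 88.8% of the control library with the same number. With HIF2A siRNA it was at 77.3, 80.9 and 63.3 CPM, and in the double knockdown at 66.7, 80.3 and 53.3 CPM. Every library that received HIF2A siRNA was below every library that did not, and the groups with HIF2A siRNA overlapped each other.

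HMOX1 is among the 19 genes that the study selected on these libraries as specific to HIF-2. These were called lower with HIF2A siRNA than with control siRNA and not called lower with HIF1A siRNA. The comparisons of the single siRNAs with control siRNA are therefore a description of HMOX1, with no test. The fitted log2 fold change was -0.84 with HIF2A siRNA (95% interval -1.12 to -0.56) and -0.10 with HIF1A siRNA (-0.38 to 0.18). Within pairs HMOX1 with HIF2A siRNA was at 66.1%, 50.4% and 53.3% of control. With HIF2A siRNA 0.2% of all 13000 genes tested passed an adjusted p of 0.05, and with HIF1A siRNA 1.39%.

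The double knockdown against HIF1A siRNA asks what HIF2A siRNA does in cells that also received HIF1A siRNA, a comparison the study did not make. Its test of HMOX1 is not independent of the selection, since the gene was chosen as not called lower in the same HIF1A siRNA libraries, which favours high values in them. HMOX1 fell to 45.7%, 68.6% and 50.5% of the level with HIF1A siRNA in the 3 pairs. This was a log2 fold change of -0.90 ± 0.13 (SE), with an adjusted p of 0.00205 in the quasi-likelihood test of edgeR, and the groups did not overlap. The call was lost in the fit without replicate 3 (log2 fold change -0.85, adjusted p = 0.208, edgeR) and in the fit without the replicate number as a block (-0.88, adjusted p = 0.278). HIF1A mRNA itself was at 134 to 181% of its level with HIF1A siRNA in these pairs, without passing the test (adjusted p = 0.182, edgeR), and its part in the result was not tested.

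Of the other 8 members, 0 passed the test in this comparison, where 1.4% of all genes did, and DESeq2 gave the same count. NQO1 had an unadjusted p under 0.05 as the sole member of the 8, at 83.4%, 81.0% and 86.8% of its level with HIF1A siRNA (log2 fold change -0.26, adjusted p = 0.272 from edgeR). The log2 fold changes of the 8 lay between -0.26 and 0.09, and their 95% intervals reached from -0.47 to 0.37. The interval of HMOX1, -1.18 to -0.61, lay below each of them. The libraries of NQO1 and SRXN1 did not overlap between the groups either, both lower in the double knockdown. How many of all genes had groups that did not overlap was not counted in this or any other comparison. A lack of overlap therefore does not set a gene apart.

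In the double knockdown against control siRNA, HMOX1 was at 57.0%, 50.03% and 44.9% of control. The log2 fold change was -0.99 ± 0.13 (SE), with an adjusted p of 0.000199 in edgeR. This comparison shares its control libraries with those that selected the gene. The call was kept in all 22 alternative fits, with log2 fold changes of -1.12 to -0.90. The change with HIF2A siRNA in the presence of HIF1A siRNA minus that in its absence, the interaction of the siRNAs, was -0.06 for HMOX1 on the log2 scale (95% interval -0.45 to 0.34), given without a test because it holds the selecting comparisons. Of all genes, 0.0% passed the test of the interaction in edgeR, with 318 at an unadjusted p under 0.05 and 22 called by DESeq2. Against HIF2A siRNA alone HMOX1 in the double knockdown was at 86.3%, 99.3% and 84.2% (log2 fold change -0.16, 95% interval -0.44 to 0.13, adjusted p = 0.566 from edgeR), a comparison in which 4.0% of all genes passed.

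**Figure D2:**
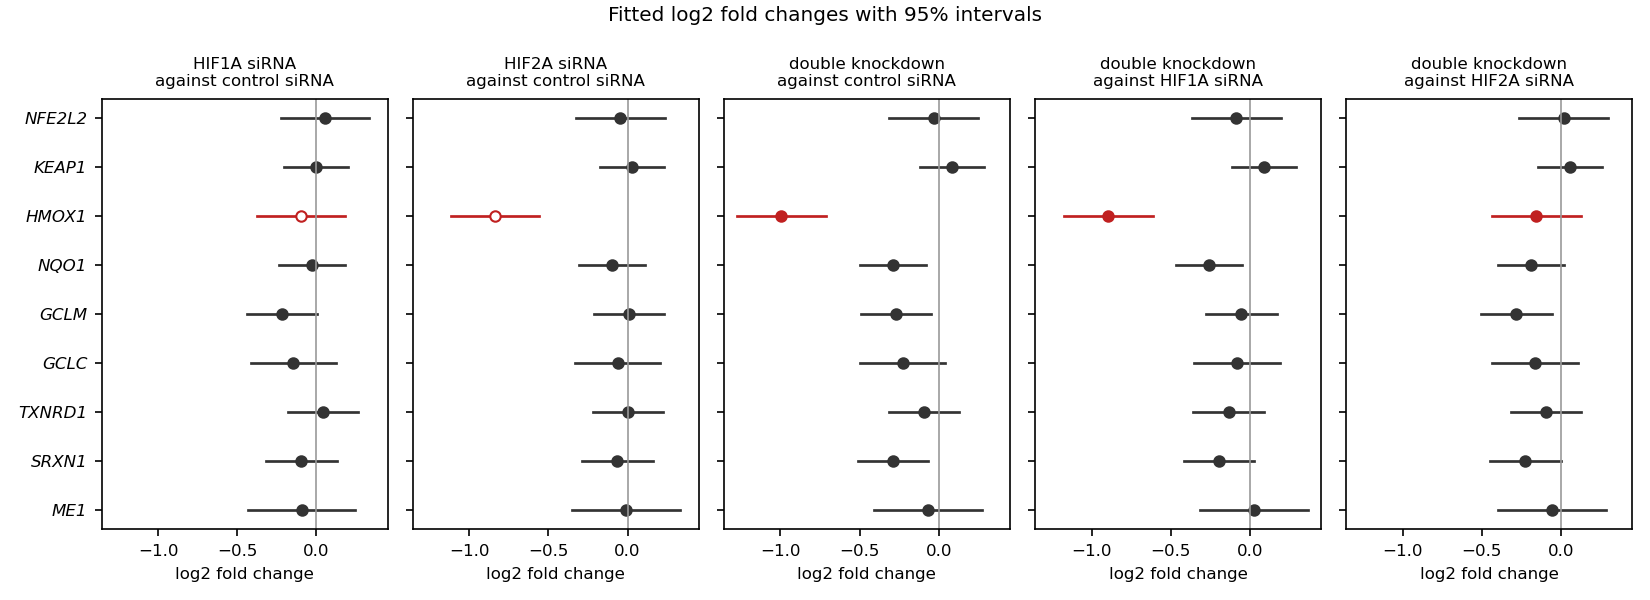
Fitted log2 fold changes (x axis) of the 9 members (y axis) in the 5 comparisons of 2 groups, with lines for 95% intervals from the edgeR fit of 12 libraries and HMOX1 in red, open where it is a description with no test. The interval of HMOX1 lies below those of the 8 other members for the double knockdown against HIF1A siRNA (-1.18 to -0.61) and against control siRNA (-1.27 to -0.71), comparisons that share reference libraries with its selection, and overlaps theirs against HIF2A siRNA.

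NFE2L2 and KEAP1, the regulators, did not pass the test in any comparison. NFE2L2 was at 140.4, 109.9 and 175 CPM with control siRNA, 128, 134 and 176.5 after HIF1A siRNA, 104, 126 and 185 after HIF2A siRNA and 128, 101 and 195 in the double knockdown. The 4 groups overlapped throughout, and replicate 3 was the highest in each. KEAP1 was the steadiest member, with the highest library at 1.21 times the lowest. It was at 166, 171 and 156 CPM with control siRNA, 184, 156 and 152 after HIF1A siRNA, 177, 166 and 159.8 after HIF2A siRNA and 183, 169 and 171 in the double knockdown. The log2 fold changes of both genes lay between -0.08 and 0.09 in the 5 comparisons of 2 groups. The 95% intervals of NFE2L2 reached from -0.37 to 0.33 and those of KEAP1 from -0.21 to 0.29. These are mRNA levels, and the amount or place of the NRF2 protein was not measured here.

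GCLC and GCLM encode the catalytic and the modifier subunit of glutamate cysteine ligase, the first enzyme of glutathione synthesis. GCLC was at 56.0, 49.1 and 52.9 CPM with control siRNA, 47.0, 49.05 and 46.65 after HIF1A siRNA, 49.5, 54.7 and 46.8 after HIF2A siRNA and 45.6, 37.75 and 51.4 in the double knockdown. Its libraries with HIF1A siRNA were all below those with control siRNA, though the nearest ones, both replicate 2, were at 49.05 and 49.12 CPM. GCLM was at 100.1, 98.3 and 135 CPM with control siRNA, 83.5, 90.3 and 112 after HIF1A siRNA, 102, 101 and 132 after HIF2A siRNA and 89.5, 72.7 and 115 in the double knockdown. Within pairs GCLM was lower with HIF1A siRNA in all 3, at 82.7 to 91.9% of control (log2 fold change -0.22, 95% interval -0.44 to 0.00, adjusted p = 0.590 from edgeR), and with HIF2A siRNA at 97.7 to 102% (0.01, -0.21 to 0.23). Neither subunit passed the test in any comparison.

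TXNRD1 and SRXN1 serve the reduction of thioredoxin and of overoxidized peroxiredoxins. TXNRD1 was at 275, 193 and 375 CPM with control siRNA, 274, 226 and 349 after HIF1A siRNA, 260.4, 220.5 and 348 after HIF2A siRNA and 262, 175 and 356 in the double knockdown. In each group replicate 3 was the highest and replicate 2 the lowest, and the groups overlapped. SRXN1, the sulfiredoxin, was at 193, 155 and 179 CPM with control siRNA, 179.9, 154 and 158 after HIF1A siRNA, 163, 177 and 161 after HIF2A siRNA and 147, 136 and 146 in the double knockdown. The double knockdown libraries of SRXN1 lay below those of each other group, with log2 fold changes of -0.29 against control siRNA, -0.19 against HIF1A siRNA and -0.23 against HIF2A siRNA and adjusted p of 0.0922, 0.497 and 0.276 from edgeR.

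NQO1 reduces quinones and ME1, the cytosolic malic enzyme, supplies NADPH. NQO1 was at 205, 205 and 263 CPM with control siRNA, 207, 220.1 and 228 after HIF1A siRNA, 189, 195 and 247 after HIF2A siRNA and 173, 178 and 198 in the double knockdown. It was lowest in the double knockdown in every replicate number, below all libraries with control siRNA and with HIF1A siRNA. ME1 was at 109, 75.7 and 122.5 CPM with control siRNA, 78.65, 86.2 and 125 after HIF1A siRNA, 73.2, 92.8 and 145 after HIF2A siRNA and 91.6, 65.9 and 145 in the double knockdown. The pairs of ME1 went both ways in each comparison, with log2 fold changes between -0.09 and 0.03.

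Without HMOX1, 0 of the 8 members passed the test with HIF1A siRNA or with HIF2A siRNA against control siRNA, in edgeR and in DESeq2, and 0 had an unadjusted p under 0.05. Since 1.39% and 0.2% of all genes passed there, a count of 0 among 8 does not set the members apart. The median log2 fold change of the 8 was -0.06 with HIF1A siRNA and -0.03 with HIF2A siRNA, beside 0.00 over all genes in both. In the double knockdown against control siRNA, where 10.3% of all genes passed, 0 of the 8 passed in edgeR and 1, NQO1, in DESeq2 (adjusted p = 0.0452). Here 3 of the 8 had an unadjusted p under 0.05. The log2 fold change of NQO1 was -0.29 ± 0.10 (SE, adjusted p = 0.0752), that of SRXN1 -0.29 ± 0.10 (adjusted p = 0.0922) and that of GCLM -0.27 ± 0.10 (adjusted p = 0.115), all from edgeR. All 6 targets beside HMOX1 were below 0, with a median of -0.25, against 0.00 over all genes. The median size of the change over all genes, regardless of sign, was 0.23 here. The 6 were measured in the same libraries, so their shared sign is not 6 separate observations. Against HIF2A siRNA alone, where 4.0% of all genes passed, 0 of the 8 passed in either tool, and GCLM (-0.28, adjusted p = 0.170) and SRXN1 had an unadjusted p under 0.05 in edgeR. In the interaction of the siRNAs 0 of the 8 had an unadjusted p under 0.05 in edgeR, and DESeq2 called 0.

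To set HMOX1 beside its fellow targets in single libraries, the mean log2 CPM of NQO1, GCLM, GCLC, TXNRD1, SRXN1 and ME1 was subtracted from that of HMOX1, after adding 0.5 CPM. The difference was -0.05 ± 0.47 with control siRNA and -0.06 ± 0.35 after HIF1A siRNA, against -0.84 ± 0.36 with HIF2A siRNA and -0.83 ± 0.59 in the double knockdown (SD, n = 3 each). The libraries with HIF2A siRNA alone lay below all those without it on this scale, while replicate 2 of the double knockdown, at -0.25, was among them. The differences within pairs with HIF2A siRNA against control siRNA were -0.40, -1.12 and -0.85 on the log2 scale. In the double knockdown against HIF1A siRNA the differences within pairs were -1.07, -0.22 and -0.996, with a mean of -0.76 ± 0.47 (SD, n = 3). The mean of the 6 targets itself moved there by -0.06, -0.32 and 0.02, and that of HMOX1 by -1.12, -0.54 and -0.98. With HIF1A siRNA against control siRNA the differences had both signs, 0.49, -0.52 and -0.02. For the double knockdown against HIF2A siRNA they averaged 0.01 ± 0.31 (SD, n = 3). No p is given for these means over chosen genes. Libraries on which the study selected HMOX1 enter each of these comparisons, and its selection favours a gap with HIF2A siRNA.

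**Figure D3:**
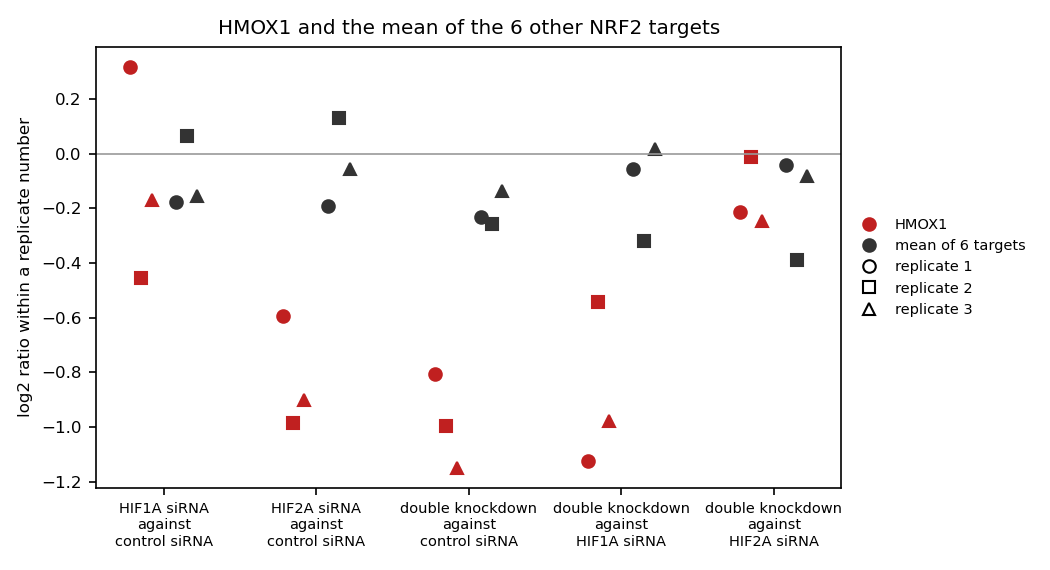
Log2 ratios between libraries of the same replicate number (y axis) for HMOX1 (red) and for the mean of the 6 other targets (black) in the 5 comparisons of 2 groups (x axis), with circles, squares and triangles for replicates 1, 2 and 3. In the 3 comparisons of a group with HIF2A siRNA against a group without it, HMOX1 lies between -1.15 and -0.54. The mean of the 6 targets lies between -0.32 and 0.13 there. Libraries on which the study selected HMOX1 enter all 3, and the double knockdown against control siRNA also adds HIF1A siRNA.

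The members differed in how far they varied with the replicate number and with the siRNA. The variance of log2 CPM over the 12 libraries was divided into shares of the siRNA group, of the replicate number and of the remainder. For TXNRD1, NFE2L2 and ME1 the replicate number took 92.8%, 81.3% and 77.0% of the variance and the siRNA group 2.08%, 1.68% and 0.92%. GCLM followed with 66.1% for the replicate number and 26.6% for the siRNA group. For HMOX1 the order was the opposite, with 82.1% for the siRNA group and 11.1% for the replicate number. The libraries that selected HMOX1 enter this division, and the selection favours a large share for the siRNA group. SRXN1 had 58.0% for the siRNA group and 15.3% for the replicate number, and NQO1 had 42.0% and 47.2%. KEAP1 had 17.9% for the siRNA group and 54.8% for the replicate number, and GCLC 39.2% and 4.48%, with 56.3% in the remainder. Over all genes tested the medians were 19.2% for the siRNA group and 46.4% for the replicate number. The geometric mean over the 4 libraries of replicate 3 was 357 CPM for TXNRD1, against 268 in replicate 1 and 203 in replicate 2, and for ME1 it was 134 against 87.0 and 79.5 CPM. For HMOX1 it was 80.7 CPM in replicate 3 against 96.9 and 105 CPM. What differed between the replicates is not given in the sources used here.

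**Figure D4:**
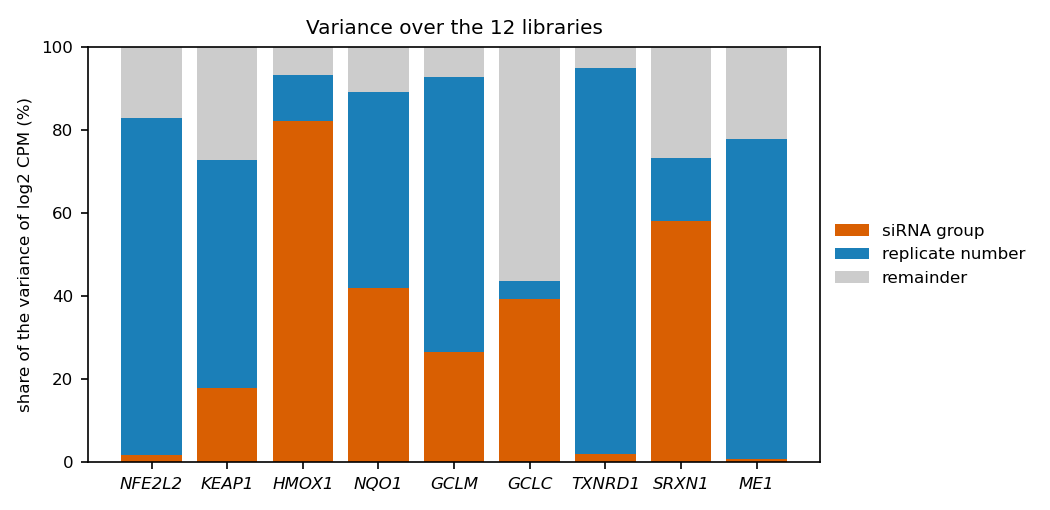
Share of the variance of log2 CPM over the 12 libraries (y axis, %) that lay between siRNA groups (orange), between replicate numbers (blue) and in the remainder (grey), for each of the 9 members (x axis). The siRNA group takes 82.1% for HMOX1 and 58.0% for SRXN1, while the replicate number takes 92.8% for TXNRD1 and 81.3% for NFE2L2. The share of HMOX1 includes the libraries on which it was selected.

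The genes whose pattern was most like that of HMOX1 were sought over the 9 log2 ratios of HIF siRNA libraries to the control library with the same number, among 10416 genes with a mean of at least 5 CPM, by the root mean square difference. They were MGLL (0.23), HMGA2 (0.28), CDK15 (0.28), CCND1 (0.30) and OTUB2 (0.31), where the median gene was at 0.82. MGLL encodes monoacylglycerol lipase, HMGA2 a chromatin architectural protein and CCND1 cyclin D1. MGLL, CCND1 and OTUB2 are on the list of 19 genes specific to HIF-2, which was selected on these libraries. Of the NRF2 members NQO1 came closest, at rank 1027 with a difference of 0.63, and ME1 was the farthest at rank 6623 with 0.87. In the double knockdown against HIF1A siRNA, where 1.4% of all genes passed, 16 of the 19 genes on that list passed the test, all lower. The list was selected partly on the same HIF1A siRNA libraries, which favours lower values here, so the count is a description. The median log2 fold change of the 19 was -1.11, with a range from -2.80 to -0.55. HMOX1 was the 15th lowest of the 19.

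Other NRF2 targets were taken as a list of 34 genes, of which 31 passed the expression filter. Against control siRNA, 1 was lower and 5 were higher in the double knockdown, where 10.3% of all genes passed, and the median log2 fold change of the list was 0.04 beside 0.00 over all genes. ABCC3, an exporter of organic anions, was lower (log2 fold change -0.55, adjusted p = 0.00912 from edgeR), at 60.6, 62.0 and 81.1 CPM with control siRNA and 40.6, 40.7 and 58.1 in the double knockdown. Its relative ABCC2 was higher (0.64, adjusted p = 0.00182), at 81.5, 68.2 and 102 CPM with control siRNA and 104, 113 and 184 in the double knockdown. The others that rose were EPHX1, the microsomal epoxide hydrolase (0.76, adjusted p = 0.00292), the heme transporter SLC48A1 (0.61, adjusted p = 0.00742), and the glutathione transferases MGST1 (0.57, adjusted p = 0.0238) and GSTP1 (0.36, adjusted p = 0.0487), all from edgeR. GSTP1 passed in 9 and MGST1 in 14 of 22 alternative fits, and the other 4 in 17 to 20. Each of the 6 genes moved the same way in all 3 pairs, and 0 were called without replicate 3 or without the replicate number as a block. In the other comparisons edgeR called 0 of the 31. DESeq2 also called 0 with each single siRNA and in the interaction, but 2 between the double knockdown and HIF1A siRNA, and 3 between the double knockdown and HIF2A siRNA. An unadjusted p under 0.05 in edgeR was reached by 5 genes with HIF1A siRNA, 2 with HIF2A siRNA, 5 in the double knockdown against each single siRNA and 1 in the interaction.

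Regulators and partners of NRF2 beside KEAP1 were a list of 19 genes, 18 of them tested. Against control siRNA, 4 were lower and 1 was higher in the double knockdown, where 10.3% of all genes passed. BACH1, the heme-binding repressor that competes with NRF2 for the same elements, was at 29.1, 17.2 and 22.2 CPM with control siRNA and at 13.9, 10.98 and 18.4 in the double knockdown (log2 fold change -0.68, adjusted p = 0.0414 from edgeR). MAFF, a small MAF partner, had a log2 fold change of -0.72 (adjusted p = 0.0395), the stress factor ATF3 of -0.76 (adjusted p = 0.0226) and SQSTM1, the autophagy receptor that binds KEAP1, of -0.36 (adjusted p = 0.0474), in the same test of edgeR. FOS was higher (1.45, adjusted p = 0.0121 from edgeR), a value set by replicates 1 and 2, with 219, 38 and 0 counts with control siRNA and 640, 82 and 0 in the double knockdown. DESeq2 called the 4 lower genes too and not FOS. SQSTM1 passed in 6 of 22 alternative fits, BACH1 and MAFF in 12 each and ATF3 in 15, each lower in every fit. Without the replicate number as a block 0 were called and without replicate 3 there was 1. In the other comparisons edgeR called 0 of the 18. DESeq2 called 1, SQSTM1, when the double knockdown was set against HIF1A siRNA, and 0 elsewhere. With an unadjusted p under 0.05 in edgeR there were 2 genes with HIF1A siRNA, 1 with HIF2A siRNA, 2 when the double knockdown was compared with HIF1A siRNA, 5 with HIF2A siRNA as the reference, and 1 in the interaction.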

How the data were processed

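Poly(A)+ RNA of RCC4 cells was sequenced in 12 libraries. The authors trimmed adaptors (Trim Galore 0.3.3), aligned reads to hg19 (HISAT2 2.05), dropped fragments with more than a unique match (Picard 2.0.1), counted fragments per gene (HTSeq 0.5.4p3, intersection-strict) and deposited raw counts per gene symbol. The kit marks strand, but the strand setting of the counting is not given in the sources used here, which leaves overlapping genes of opposite strand uncertain.

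From these counts, edgeR 4.0.16 in R 4.3.3 was fitted to all 12 libraries with TMM normalization (factors 0.980 to 1.02), edgeR's expression filter (13000 genes kept), the quasi-likelihood test, a term for the replicate number (the block) and Benjamini-Hochberg adjustment of p over all genes. A gene was called at an adjusted p under 0.05. The block follows the study, which paired conditions by biological replicate. Deviations from the group means correlated at 0.102 to 0.830 across genes between libraries that share a number and at -0.744 to 0.549 between the others. Replicates differed by more than sampling noise (chi-square per degree of freedom 16.3 to 122), and none were merged. No label says that replicates came from separate cultures, so the p-values measure the spread between these libraries. CPM used the TMM-scaled totals. Log2 ratios between libraries were taken after adding 0.5 CPM, and percentages within pairs without it. Levels per kilobase used GENCODE v44 canonical transcripts, and promoter windows RefSeq (GRCh38.p14), in which 8 of 9 members, all but HMOX1, matched. No coordinates were taken over to hg19.

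The members and gene lists were chosen with earlier results of these data known. Named genes were the 9 members, HIF1A and EPAS1, up to 6 genes per list and comparison with the smallest adjusted p under 0.05, and the 5 genes most like HMOX1. The script was tested on simulated data. Alternatives were DESeq2 1.42.0 or its size factors, no replicate block, no filter, a filter of at least 10 counts per library, a fit corrected for GC content and length with the replicate block (both known for 90.0% of genes tested), only the compared libraries, leaving out a replicate number or a library, other added CPM (0.1 and 2) and a minimum of 20 CPM.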

Additional observations from a re-analysis of the deposited data

How the results depend on the processing

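HMOX1 was lower in the double knockdown than with HIF1A siRNA in all 22 alternative fits, with log2 fold changes of -1.06 to -0.75, and passed the test in 20. Without the replicate block it was -0.88 (adjusted p = 0.278 from edgeR, where 8 genes were called in all) and 0 members were called. With 1 replicate number or 1 library left out it lay between -1.06 (without replicate 2) and -0.75 (without HIF1A siRNA replicate 1), the call being lost without replicate 3 (-0.85, adjusted p = 0.208, edgeR, with 26 genes called in all), so that 0 or 1 members were called. In the double knockdown against control siRNA, where HMOX1 was the 1 member called, 2 were called with DESeq2 and with the GC content and length trend removed in the fit with the replicate block (HMOX1 and NQO1), and 3 with only the compared libraries (HMOX1, NQO1 and SRXN1). With libraries left out it was 1 to 3, the 3 (again HMOX1, NQO1 and SRXN1) coming when replicate 2 was left out whole or for HIF2A siRNA alone. NQO1 had adjusted p of 0.0452 with DESeq2, 0.0308 in the trend fit, 0.0286 with only the compared libraries, 0.0475 without replicate 2 and 0.0291 with replicate 2 of HIF2A siRNA left out, and SRXN1 0.0309, 0.0357 and 0.0247 in the last 3 of these. The replicate block changed no other call of a member. Of 1048 values of the other 8 members in the alternative fits, these 8 passed the test and 99, none of them called, changed sign.

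HMOX1 minus the 6 other targets was unaffected in sign by adding 0.1 or 2 CPM. With 1 replicate number left out it was -0.98 to -0.63 with HIF2A siRNA, -0.88 to -0.66 in the double knockdown against control siRNA and -1.03 to -0.61 against HIF1A siRNA, but -0.27 to 0.24 with HIF1A siRNA and -0.17 to 0.11 in the double knockdown against HIF2A siRNA. Of the 5 genes most like HMOX1, 4 were the same at a minimum of 20 CPM, with TGM2 in place of OTUB2. There were 3 libraries per group, and the standard error was near 0.10 to 0.16 for the members. In the double knockdown against control siRNA, changes as small as those of NQO1 and SRXN1 lie at the limit of what passes. Fewer genes passed with the single siRNAs against control siRNA (1.39% and 0.2% against 10.3%), so a change must be larger to pass there.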

Other observations

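Heme metabolism, in which HMOX1 breaks heme down, was described through 19 further genes, 16 of them tested. ABCB6, a porphyrin transporter, was lower in the groups that received HIF1A siRNA. It was at 56.8, 61.0 and 38.1 CPM with control siRNA, 34.6, 34.9 and 24.3 with HIF1A siRNA, 66.3, 88.7 and 41.6 after HIF2A siRNA and 26.1, 33.4 and 24.0 in the double knockdown. The groups with HIF1A siRNA lay below the others. Its log2 fold change was -0.72 with HIF1A siRNA against control siRNA (adjusted p = 0.0104, where 1.39% of all genes passed), and in the double knockdown it was -0.88 against control siRNA (adjusted p = 0.000726) and -1.19 against HIF2A siRNA (adjusted p = 7.7e-05), all from edgeR. CPOX, an enzyme of heme synthesis, was lower in the double knockdown than with HIF2A siRNA (-0.63, adjusted p = 0.0254 from edgeR), where 4.0% of all genes passed. SLC48A1, which moves heme into the cytosol, was at 125, 147 and 96.8 CPM with control siRNA and 197.5, 179 and 183 in the double knockdown, the opposite direction to HMOX1. FLVCR2, the remaining gene of the 3 called in the double knockdown against control siRNA, where 10.3% of all genes passed, had 26, 11 and 28 counts with control siRNA and 3, 0 and 5 in the double knockdown. With HIF2A siRNA against control siRNA, where 0.2% of all genes passed, 0 of the 16 passed in edgeR or DESeq2, with 5 at an unadjusted p under 0.05 in edgeR, and in the double knockdown against HIF1A siRNA (1.4% of all genes) 0 passed in edgeR and 1, SLC48A1, in DESeq2, with 3 at that p. Without the replicate number as a block 0 heme genes were called in any comparison.

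Of 21 other antioxidant enzymes, all tested, 1 was lower and 1 was higher in the double knockdown against control siRNA, where 10.3% of all genes passed, and 0 in each other comparison in edgeR and DESeq2, with 0 to 4 at an unadjusted p under 0.05 in edgeR. GLRX, the cytosolic glutaredoxin, was lower, at 19.2, 21.5 and 17.4 CPM with control siRNA and 11.1, 12.6 and 6.62 in the double knockdown (log2 fold change -0.99, adjusted p = 0.00978 from edgeR). GPX4, which reduces lipid peroxides, was higher at 249, 309 and 256 CPM against 366, 382 and 314 (0.38, adjusted p = 0.0464 from edgeR). GPX4 passed in 9 and GLRX in 17 of 22 alternative fits, and 0 of the 21 enzymes were called without the replicate number as a block or without replicate 3.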
